A study of Drosophila melanogaster with 9 samples.

Results

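Sarcomere and muscle genes were followed in RNA sequencing libraries of Drosophila melanogaster ovaries, taken as genes of the muscle sheath of the ovary and oviduct. The set was a list of 33 genes taken by symbol or synonym, of 17558 gene identifiers in all. Of these, 32 had an identifier in the count files and 28 passed the filter on low counts, against 8642 genes tested in all. One gene, wupA, which encodes troponin I, is not analysed here. Unc-89 is listed as Obsc in the annotation. The other 4 genes without a test (TpnC41C, TpnC25D, Act79B and Act88F) are described by their counts.

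The study compared 3 genotypes with 3 libraries each, all from ovaries of 3-day-old females kept at 25 °C, and the labels give 10 females per genotype without saying whether that is per replicate. The labels give the null heterozygote as heterozygous null, w[1118]moe[G0415] without a slash, which is read here as moe[G0415] over w[1118]. The NES heterozygote carried moe[NES] over w[1118], and the mutant carried moe[G0415] over moe[NES]. Every group therefore carried at least 1 altered allele of Moe, which encodes Moesin, the fly ERM protein that ties actin filaments to the plasma membrane. The labels call moe[G0415] a null and do not describe moe[NES] further. Whether the replicates are separate crosses is not stated either, and p-values then cover only the spread among these samples, which may be technical.

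A fly ovary is a bundle of ovarioles, each wrapped in a thin muscular epithelial sheath, and the bundle is held in a peritoneal sheath of muscle fibres that continues onto the oviduct. Contractions of these layers move egg chambers along and help to expel mature eggs. A sarcomere slides thin filaments of actin, tropomyosin and troponin past thick filaments of myosin, and calcium binding to troponin C allows the filaments to interact. Z discs anchor the thin filaments, and very large elastic proteins link Z discs to thick filaments. Because whole ovaries were sequenced, fewer muscle cells and less RNA per muscle cell cannot be told apart.

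Library totals were 31.8 to 43.6 M counts, so that 1 CPM (a count per 1e6) rests on at least 31 counts, and levels are TMM-scaled CPM. Null heterozygote replicates 1 and 3 stood apart by few eggshell transcripts, at 0.855% and 1.02% of counts, against 2.22% to 4.73% in the other 7 libraries. Moe, the targeted gene, was at 356, 439 and 368 CPM in null heterozygotes, 619, 769 and 692 in NES heterozygotes and 403, 385 and 439.9 in mutants.

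The contractile genes were present at low levels, and of the gene copies for actin and troponin C a few made up nearly all of the counts. Per kb of exon, the mean level over all libraries was 2.48 CPM per kb for Mhc, the myosin heavy chain gene, which the naming rule did not take and which is given as the central motor of the sarcomere. Its partners had similar levels per length, with 3.14 for the light chain gene Mlc1, 4.65 for the light chain gene Mlc2, 2.97 for Prm (paramyosin) and 2.5 for Mf (myofilin, a thick filament protein). On the thin filament, up (troponin T) was at 5.26 CPM per kb and Tm2 (tropomyosin 2) at 3.14. Among all tested genes, Mhc ranked at the 22.3rd percentile of level per length and up at the 27.7th.

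Of the 4 muscle actin genes, Act57B led with 18.5 CPM per kb, followed by Act87E with 1.18. Act79B and Act88F, the latter known as the actin of the indirect flight muscle, had at most 8 and 7 counts in any library. The flight muscle gene fln (flightin) had 0 counts in all 9 libraries, which together hold 333 M counts, so a level of up to 0.00901 CPM is allowed (3 counts, counting error only). TpnC4, a further flight muscle troponin C, had 1 to 26 counts. Of the 4 troponin C members, TpnC73F was at 3.77 CPM per kb and TpnC47D at 1.46, whereas TpnC41C had at most 13 counts in a library and TpnC25D 1 count in all. Of the 7 genes listed for indirect flight muscle, fln, Act88F and salm did not pass the filter on low counts. Those that passed were TpnC4, bru1 (an RNA-binding protein, at 1001 to 1313 CPM) and the members Strn-Mlck and Mlp84B, which are described with their roles. In null heterozygote replicate 1, bru1 was at 1006 of the 1014 CPM summed over this list. The data do not show in which cells bru1 is transcribed.

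Actin genes are nearly identical in their coding sequence, and the non-muscle gene Act5C was at 3020 to 4324 CPM, so reads may be split or misplaced among them. The actin values are uncertain for that reason. Reads may also be shared among the troponin C genes, which was not tested. Actn also shares exonic bases on its own strand with usp, and CAP with CG12910. Antisense genes overlap exons of sls, Strn-Mlck, Act87E and Actn, and the strand setting of the counting is not given in the sources used here.

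A few members were far more abundant than the sarcomere genes. Chd64, a calponin family gene, was at 133 CPM per kb, Argk1 (arginine kinase, which buffers ATP) at 95.4, and Actn (alpha-actinin, which crosslinks actin at Z discs) at 36.7. These lie at the 93.7th, 90.9th and 69.9th percentiles of tested genes, and mean levels of 194, 334 and 194 CPM against 22.5 for Mhc make them most of the summed signal. The regulators how (an RNA-binding protein) and Mef2 (the MADS box factor that activates muscle genes) were at 17.3 and 5.54 CPM per kb. The data do not show in which cells these genes are transcribed, and the name of the set is best carried by its sarcomere genes.

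**Figure D1:**
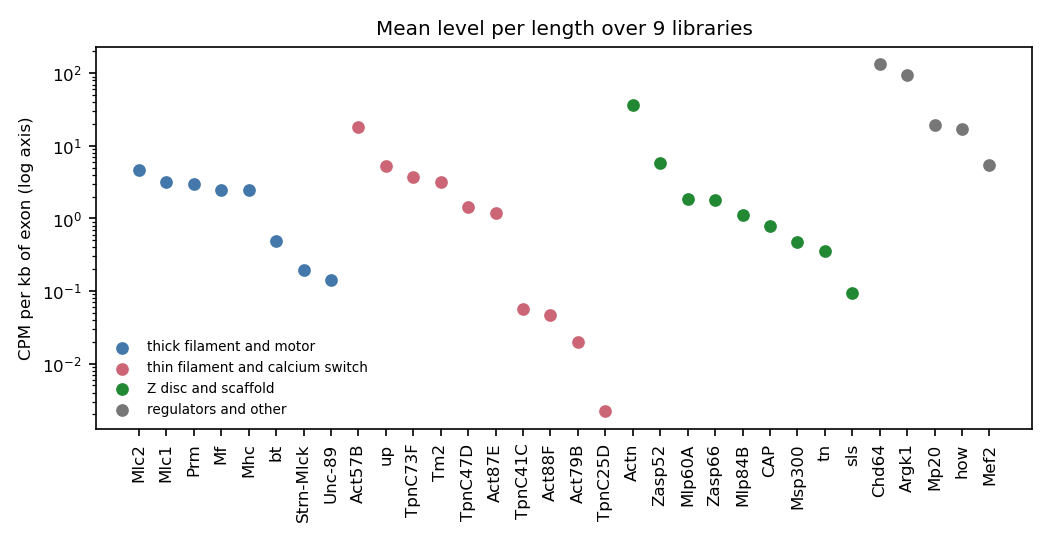
Mean level over 9 libraries of the 32 muscle genes with counts, in CPM per kb of exon on a log axis, coloured by role. Chd64 and Argk1 sit highest at 133 and 95.4, Act57B leads the thin filament genes at 18.5, and TpnC25D, Act79B, Act88F and TpnC41C lie lowest.

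Muscle transcripts varied more from library to library than most genes. The ratio of the highest to the lowest library had a median of 2.41 over the 28 tested members and 1.48 over all tested genes. By role the median ratio was 3.70 for thin filament genes, 2.72 for thick filament genes, 2.38 for Z disc and scaffold genes and 1.43 for regulators and others. Mutant replicate 1 was the highest library for 20 of the 28 members, against 12.3% of all tested genes. NES heterozygote replicate 1 was the lowest for 13 of them, against 9.41% of all tested genes.

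Without the abundant Chd64, Argk1 and Actn, the remaining members summed to 353, 483 and 353 CPM in null heterozygote replicates 1, 2 and 3. The sums were 338, 457 and 429.8 CPM in NES heterozygotes and 607, 427 and 502 CPM in mutants. The genotypes overlapped, since mutant replicate 2 lay below null heterozygote replicate 2 and below both NES heterozygote replicates 2 and 3. With all 32 genes, the share of counts was 0.109%, 0.127% and 0.106% in null heterozygotes, 0.102%, 0.122% and 0.112% in NES heterozygotes and 0.134%, 0.110% and 0.121% in mutants.

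**Figure D2:**
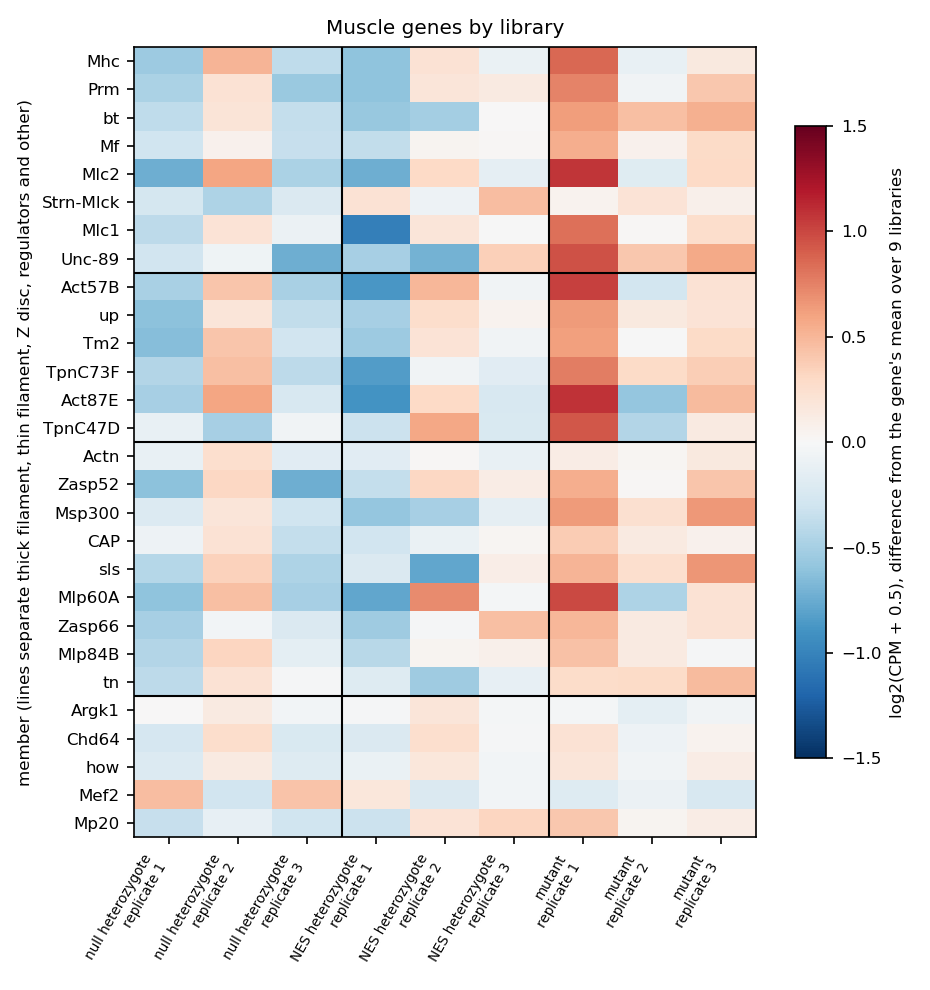
Difference of each tested member from its own mean over 9 libraries, as log2(CPM + 0.5), with members in rows grouped by role and libraries in columns grouped by genotype. Mutant replicate 1 is highest for 20 of 28 members and NES heterozygote replicate 1 lowest for 13, while Mef2 runs the other way and Argk1, Chd64 and how vary little.

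Eggshell transcripts, which follicle cells make in late egg chambers, were low in libraries where muscle transcripts were low. The 3 lowest muscle sums (338, 353 and 353 CPM) were found at eggshell shares of 2.22%, 0.855% and 1.02%, and the 3 highest (607, 502 and 483 CPM) at 4.73%, 4.22% and 4.10%. Over a list of 13 follicle cell markers, the share of counts was 0.173% to 0.885% in null heterozygotes, 0.365% to 0.771% in NES heterozygotes and 0.747% to 0.964% in mutants. A fit with the eggshell share as a covariate is given with the comparisons.

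**Figure D3:**
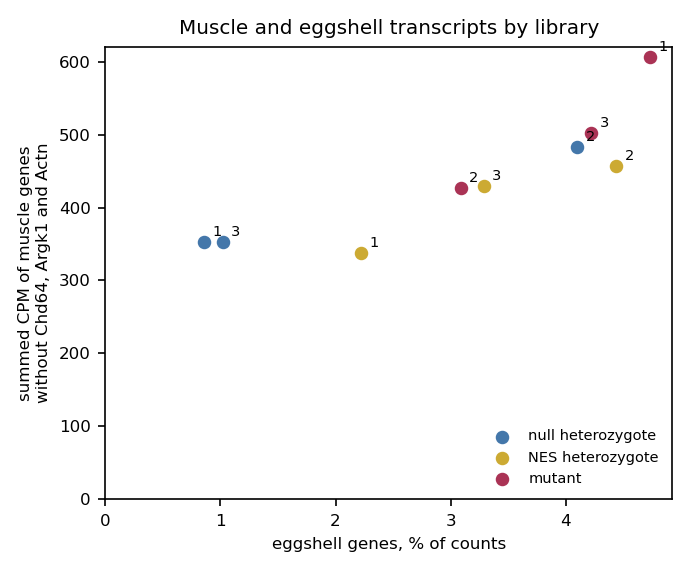
Summed TMM-scaled CPM of the muscle genes without Chd64, Argk1 and Actn (vertical) against the percentage of counts in eggshell genes (horizontal), 1 point per library, coloured by genotype and numbered by replicate. The libraries with the 3 lowest sums, 338, 353 and 353, have the 3 lowest eggshell shares, and mutant replicate 1 is highest on both axes at 607 and 4.73%.

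Setting the mutant against the null heterozygote, read as moe[G0415] over w[1118], asks what differs when the w[1118] copy is replaced by moe[NES]. Most sarcomere genes had higher means in mutants, but 0 of the 28 tested members passed an adjusted p of 0.05 in edgeR's quasi-likelihood test, where 1.25% of all tested genes did. At an unadjusted p under 0.05 there were 6 members (bt, Mf, Unc-89, Strn-Mlck, Msp300 and Mp20), against 17.0% of all tested genes, and DESeq2 called bt and Msp300 (adjusted p = 0.0268 and 0.0276), against 6.39% of all tested genes. Positive log2 fold changes were seen in 26 of 28 members, with a median of 0.54, against 50.0% of all tested genes and a median of 0.00.

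The thick filament and motor genes numbered 8, all positive, with a median log2 fold change of 0.57 and 0 called. Mhc was at 14.4, 30.6 and 16.3 CPM in null heterozygotes, 13.9, 24.8 and 19.8 in NES heterozygotes and 39.2, 19.7 and 23.7 in mutants. The mutant range overlapped both others, because null heterozygote replicate 2 was above 2 of the mutant libraries. The log2 fold change of Mhc was 0.43 (SE 0.36, edgeR adjusted p = 0.487) against the null heterozygote and 0.50 (SE 0.36, adjusted p = 0.592) against the NES heterozygote. Mlc2, a myosin light chain gene, was at 5.69, 14.9 and 6.89 CPM in null heterozygotes, 5.65, 12.1 and 8.86 in NES heterozygotes and 21.0, 8.51 and 12.1 in mutants. Replicate 2 of both heterozygotes and mutant replicate 1 were the high libraries for Mhc and Mlc2 alike. For Mlc2 the log2 fold changes were 0.60 (SE 0.46, adjusted p = 0.458) against the null and 0.65 (SE 0.46, adjusted p = 0.588) against the NES heterozygote.

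bt and Mf had a narrower spread. The gene bt encodes projectin, a titin-like elastic protein of the sarcomere (chromosome 4, 724400 to 776474, BDGP6.54 annotation), and was at 9.78, 14.8 and 9.93 CPM in null heterozygotes. It was at 8.51, 8.88 and 12.9 CPM in NES heterozygotes and at 20.1, 17.8 and 18.8 in mutants. All 3 mutant libraries lay above all 6 others. The log2 fold change of bt was 0.72 (SE 0.21, edgeR adjusted p = 0.163) against the null heterozygote and 0.90 (SE 0.21, adjusted p = 0.117) against the NES heterozygote. Mf was at 10.4, 13.6 and 10.1 CPM in null heterozygotes, 9.92, 13.3 and 13.1 in NES heterozygotes and 19.1, 13.6 and 15.9 in mutants. Its mutant libraries also lay above all others, mutant replicate 2 only barely, since it and null heterozygote replicate 2 both round to 13.6 CPM. The log2 fold changes were 0.51 (SE 0.18, adjusted p = 0.232) against the null and 0.42 (SE 0.18, adjusted p = 0.436) against the NES heterozygote.

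Unc-89 encodes obscurin, a giant protein of the sarcomere's M line with kinase domains. Its levels were low, at 1.29, 1.59 and 0.81 CPM in null heterozygotes, 1.04, 0.829 and 2.30 in NES heterozygotes and 3.72, 2.38 and 2.72 in mutants. The mutant did not overlap the others, although its lowest library came close to NES heterozygote replicate 3. The log2 fold changes, the largest among members in both mutant comparisons, were 1.26 (SE 0.43, edgeR adjusted p = 0.218) against the null and 1.08 (SE 0.43, adjusted p = 0.397) against the NES heterozygote. The remaining giant gene of this role, Strn-Mlck, with titin-like and myosin light chain kinase domains, was set apart by the null heterozygote. It was at 5.14, 4.41 and 5.29 CPM in null heterozygotes, 7.36, 5.89 and 8.80 in NES heterozygotes and 6.52, 7.30 and 6.59 in mutants. Every null heterozygote library lay below the other 6, and 3.27% of all tested genes did the same. No other member had a heterozygote apart from both other genotypes, in data where 2.87% of all tested genes had the null heterozygote above, 2.04% the NES heterozygote above and 2.95% the NES heterozygote below. The log2 fold change was 0.46 (SE 0.18, adjusted p = 0.261) in the mutant against the null heterozygote and -0.11 (SE 0.18, adjusted p = 0.775) against the NES heterozygote.

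Of the thin filament genes 6 were tested, all positive, with a median log2 fold change of 0.58 and 0 called. Act57B was at 20.9, 39.5 and 20.9 CPM in null heterozygotes, 15.9, 41.9 and 28.5 in NES heterozygotes and 60.7, 24.3 and 34.3 in mutants. The same libraries were high as for Mhc and Mlc2, 1 in each genotype. Act57B had log2 fold changes of 0.56 (SE 0.44, edgeR adjusted p = 0.471) against the null and 0.47 (SE 0.44, adjusted p = 0.648) against the NES heterozygote. The troponin T gene up was at 8.17, 14.6 and 9.83 CPM in null heterozygotes, 8.96, 15.5 and 13.3 in NES heterozygotes and 20.3, 14.2 and 14.9 in mutants. Mutant replicates 2 and 3 were level with the highest heterozygote libraries. Its log2 fold changes were 0.60 (SE 0.27, adjusted p = 0.299) against the null and 0.39 (SE 0.27, adjusted p = 0.582) against the NES heterozygote. The remaining thin filament genes (Tm2, TpnC47D, TpnC73F and Act87E) lay between 0.44 and 0.77 against the null heterozygote.

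**Figure D4:**
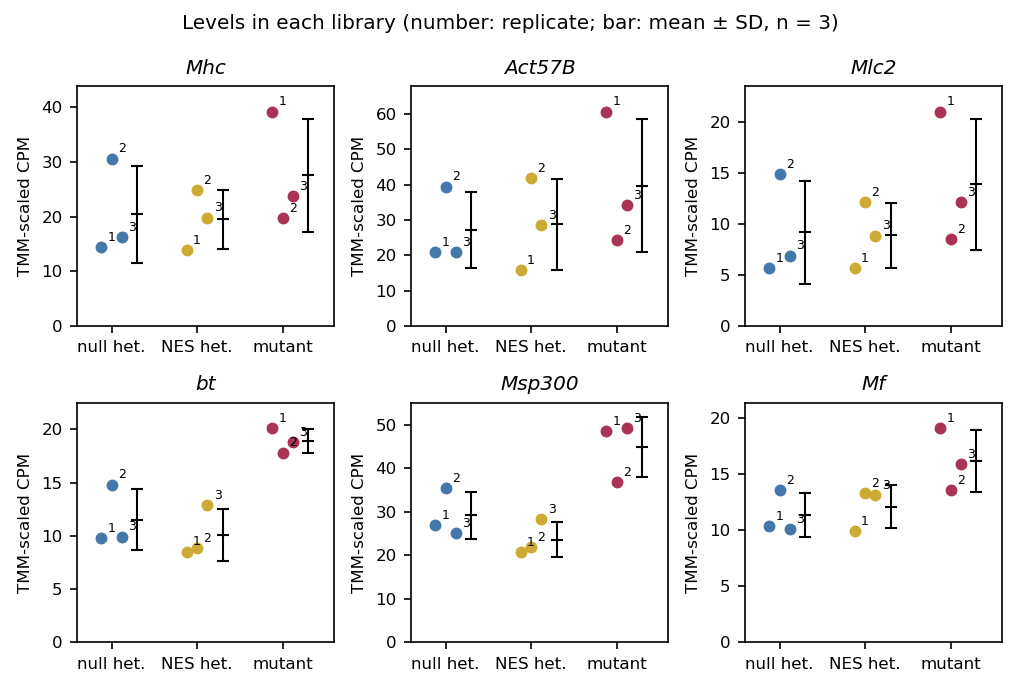
TMM-scaled CPM in each library for Mhc, Act57B and Mlc2 (top) and bt, Msp300 and Mf (bottom), with replicates numbered and the mean ± SD of 3 libraries beside them. In the top row 1 library per genotype is high and the genotypes overlap, and in the bottom row all 3 mutant libraries lie above the 6 others.

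The 9 Z disc and scaffold genes were all positive in both mutant comparisons, with medians of 0.56 and 0.33 and 0 called. Msp300 encodes the fly nesprin, a giant protein that links nuclei to the cytoskeleton (chromosome 2L, 5100877 to 5207002). It was at 27.0, 35.4 and 25.1 CPM in null heterozygotes, 20.7, 21.9 and 28.3 in NES heterozygotes and 48.6, 36.9 and 49.2 in mutants. All mutant libraries lay above the others, mutant replicate 2 (36.9 CPM) only narrowly above null heterozygote replicate 2 (35.4 CPM). The log2 fold change of Msp300 was 0.62 (SE 0.18, edgeR adjusted p = 0.158) against the null heterozygote and 0.93 (SE 0.18, adjusted p = 0.0623) against the NES heterozygote, the closest of all members to the threshold. The gene tn (thin), a TRIM32 relative that preserves muscle structure, was at 1.48, 2.53 and 2.08 CPM in null heterozygotes, 1.77, 1.30 and 1.89 in NES heterozygotes and 2.66, 2.67 and 3.11 in mutants. Here too the mutant did not overlap the others, though mutant replicates 1 and 2 came close to null heterozygote replicate 2 (2.53 CPM). Its log2 fold changes were 0.47 (SE 0.26, adjusted p = 0.357) against the null and 0.76 (SE 0.27, adjusted p = 0.324) against the NES heterozygote.

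sls, whose titin-like product spans from the Z disc to the thick filament, was at 3.77, 6.81 and 3.65 CPM in null heterozygotes, 4.44, 2.84 and 5.65 in NES heterozygotes and 7.69, 6.34 and 8.57 in mutants. Mutant replicate 2 was below null heterozygote replicate 2, so the mutant stood clear of the NES heterozygote alone. The log2 fold changes of sls were 0.67 (SE 0.32, edgeR adjusted p = 0.317) against the null and 0.80 (SE 0.32, adjusted p = 0.397) against the NES heterozygote. Zasp52, a PDZ and LIM protein gene of the Z disc, was at 39.7, 75.9 and 36.8 CPM in null heterozygotes, 47.9, 76.4 and 66.1 in NES heterozygotes and 89.3, 61.9 and 81.9 in mutants. Its groups overlapped (0.61, SE 0.29, edgeR adjusted p = 0.317 against the null and 0.29, SE 0.29, adjusted p = 0.667 against the NES heterozygote). Actn was at 178, 230.2 and 171 CPM in null heterozygotes, 171, 195 and 179 in NES heterozygotes and 209, 196 and 214 in mutants. The mutant values of Actn were above those of the NES heterozygote and within those of the null heterozygote (0.10, SE 0.11, edgeR adjusted p = 0.611 against the null and 0.18, SE 0.11, adjusted p = 0.56 against the NES heterozygote). The other Z disc genes (Zasp66, Mlp60A, Mlp84B and CAP) lay between 0.26 and 0.58 against the null heterozygote and between 0.29 and 0.33 against the NES heterozygote.

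In all, 5 of the 28 tested members (bt, Mf, Unc-89, Msp300 and tn) had every mutant library above every library of both heterozygotes, against 4.66% of all tested genes. None (0 of 28) had every mutant library below those of both heterozygotes (3.29% of all tested genes). With the null heterozygote compared by itself, 0 of 28 had every one below (7.80%), and Argk1 had every one below the NES heterozygote. Every mutant library lay above every null heterozygote library for 8 members (10.6% of all tested genes) and above every NES heterozygote library for 9 (13.5%). Both counts include the 5 members above both heterozygotes, and the shares likewise include genes above both. Leaving out 1 library can add genes to the set above both heterozygotes but, at unchanged levels, cannot remove any. That the 5 members stayed in it is therefore no test of them. That set counted 9 when either null heterozygote replicate 2 or mutant replicate 2 was left out, where 9.99% and 10.4% of all tested genes qualified.

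Members with at least 10000 bases of annotated exon, 7 in all, had medians of 0.62 and 0.80 against the null and the NES heterozygote, and the 21 shorter members 0.51 and 0.39. The 222 other tested genes of this length had a median log2 fold change of 0.13 in both comparisons, with 68.0% and 65.8% positive. The part of transcript length in the values of the giant genes was not tested.

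The 5 regulators and other members had medians of 0.13 and 0.06 and 0 called. Mef2 was at 68.8, 40.8 and 67.6 CPM in null heterozygotes, 56.4, 42.9 and 48.6 in NES heterozygotes and 43.8, 47.0 and 42.3 in mutants. It was highest in the libraries where eggshell and sarcomere transcripts were low, and the genotypes overlapped. Mef2 had log2 fold changes of -0.41 (SE 0.19, edgeR adjusted p = 0.309) against the null and -0.15 (SE 0.19, adjusted p = 0.728) against the NES heterozygote. The level of how was 76.0, 95.8 and 76.3 CPM in null heterozygotes, 81.4, 98.8 and 85.4 in NES heterozygotes and 99.4, 84.3 and 94.4 in mutants. Its groups overlapped, and the log2 fold changes were 0.17 (SE 0.12, adjusted p = 0.427) against the null and 0.07 (SE 0.12, adjusted p = 0.794) against the NES heterozygote.

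Mp20, a calponin-like muscle protein gene, was at 14.0, 16.4 and 14.4 CPM in null heterozygotes, 14.2, 20.7 and 22.4 in NES heterozygotes and 23.8, 18.4 and 19.4 in mutants. The mutant lay above the null heterozygote (0.46, SE 0.18, edgeR adjusted p = 0.264) and overlapped the NES heterozygote (0.11, SE 0.18, adjusted p = 0.791). Chd64 was at 161, 230.0 and 164 CPM in null heterozygotes, 165, 229 and 189.9 in NES heterozygotes and 224, 183 and 200 in mutants. Replicate 2 of both heterozygotes exceeded every mutant library for this gene (0.13, SE 0.17, edgeR adjusted p = 0.636 against the null and 0.06, SE 0.17, adjusted p = 0.874 against the NES heterozygote). Argk1 was at 336, 365 and 324 CPM in null heterozygotes, 330.3, 377 and 328 in NES heterozygotes and 326, 301 and 321 in mutants. All mutant libraries of Argk1 were below those of the NES heterozygote, where 11.4% of all tested genes behaved so (-0.13, SE 0.08, edgeR adjusted p = 0.56). They overlapped those of the null heterozygote (-0.11, SE 0.08, adjusted p = 0.424).

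Setting the mutant against the NES heterozygote asks what differs when the copy from the w[1118] chromosome is replaced by moe[G0415]. It shares the 3 mutant libraries with the comparison above. Here too 0 of 28 members passed in edgeR, where 0.972% of all tested genes did. At an unadjusted p under 0.05 there were 7 members (TpnC73F, sls, bt, Mf, Unc-89, Msp300 and tn), against 11.3% of all tested genes. Positive log2 fold changes were seen in 25 of 28 members with a median of 0.41, against 50.4% of all tested genes and a median of 0.00. DESeq2 called bt and Msp300 (adjusted p = 0.00267 and 0.000171), with 3.99% of all tested genes called.

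**Figure D5:**
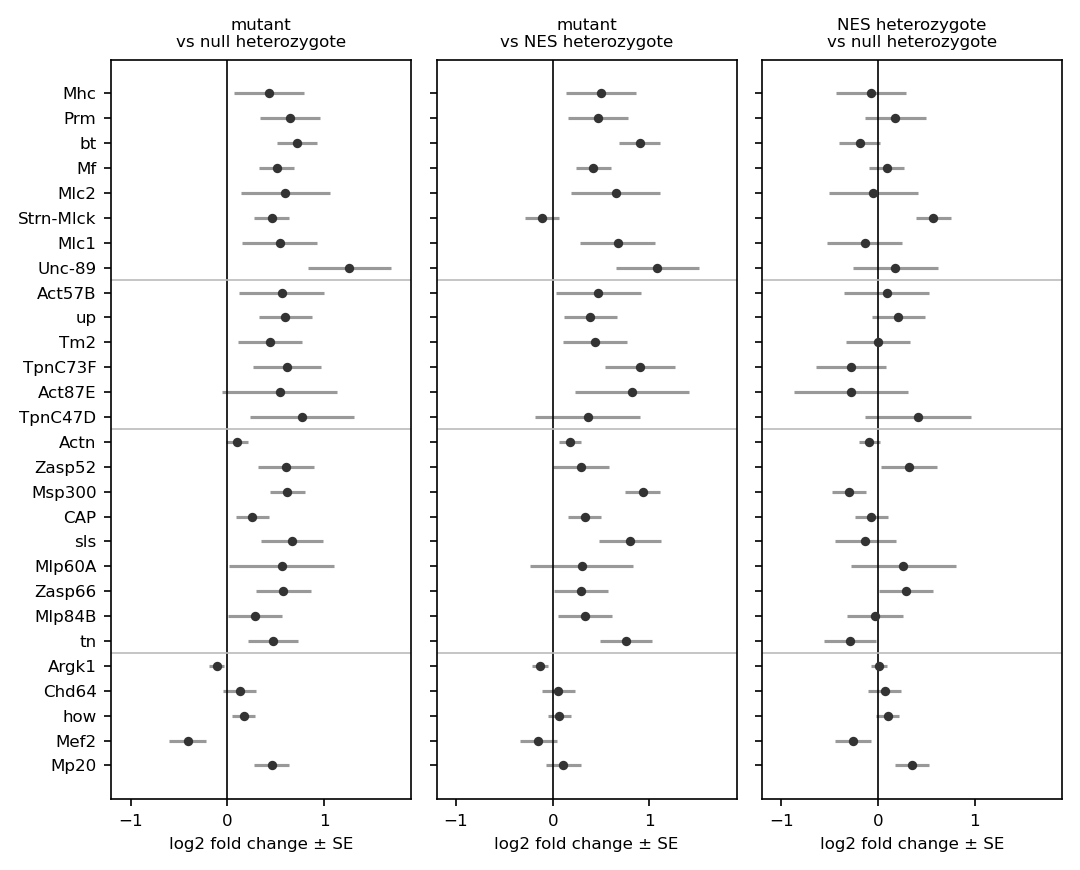
Log2 fold change ± SE of the 28 tested muscle genes from the edgeR fit in the 3 comparisons, with genes grouped by role and a line at 0. Most genes sit right of 0 in both mutant comparisons, with medians of 0.54 and 0.41, and around 0 between the heterozygotes.

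Between the NES and the null heterozygote, the muscle genes had no common direction. Of 28 members, 15 had a positive log2 fold change, with a median of 0.01 against 0.00 over all tested genes, of which 49.3% were positive. None of the members passed in edgeR (0 of 28), where 0.833% of all tested genes did, 1 had an unadjusted p under 0.05, against 9.55% of all tested genes, and DESeq2 called 0, against 3.95%. That 1 gene was Strn-Mlck (0.57, SE 0.18, edgeR adjusted p = 0.268), which was also the 1 member with every NES heterozygote library above the null heterozygote (6.25% of all tested genes), while 0 had every one below (7.05%). After it, the next lowest p was that of Mp20 (0.35, SE 0.18, adjusted p = 0.621).

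Single libraries weighed on the comparisons. Without null heterozygote replicate 2, 13 of the 28 members passed against the null heterozygote, among 41.6% of all tested genes. These were up, Tm2, TpnC73F, sls, bt, Prm, Mf, Zasp52, Unc-89, Msp300, how and Actn as higher and Mef2 as lower. The same leave-out gave bt and Msp300 as higher against the NES heterozygote (2.93% of all tested genes) and Mef2 as lower between the heterozygotes (8.38%). Without mutant replicate 1 the median log2 fold change was 0.25 against the null and 0.20 against the NES heterozygote, and without NES heterozygote replicate 1 it was 0.22 against the latter. Without null heterozygote replicates 1 and 3 the median was 0.07 against the null heterozygote, resting on 1 library of that group that is assumed to vary like the others, and with the eggshell share as a covariate it was -0.01, with Argk1 called lower among 9.34% of all tested genes. Against the NES heterozygote the median with the covariate was 0.29, and TpnC73F, bt and Msp300 passed as higher, among 12.6% of all tested genes. Between the heterozygotes 8 members passed with the covariate (Strn-Mlck higher; Mhc, Mlc2, Tm2, TpnC73F, Msp300, Chd64 and Actn lower), among 28.4% of all tested genes. With the mutant and NES heterozygote libraries fitted alone, bt and Msp300 passed (edgeR adjusted p = 0.0487 and 0.0364), among 1.71% of all tested genes.

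Other genes of muscle physiology were read from lists that do not overlap the members. Of all tested genes, 1.25% passed against the null heterozygote, 0.972% against the NES heterozygote and 0.833% between the heterozygotes. A count of 0 called in lists this short therefore does not show that their genes were unchanged. Of 10 tested genes of calcium handling and excitation, 1 passed in each mutant comparison, higher both times, and 0 between the heterozygotes, with medians of 0.17, 0.10 and 0.00. That gene was Itpr, the inositol trisphosphate receptor of the calcium store, at 65.7 ± 8.58 CPM in null heterozygotes, 65.8 ± 5.78 in NES heterozygotes and 103 ± 7.09 in mutants (SD, n = 3), which rose by 0.65 on the log2 scale in both mutant comparisons (SE 0.11, edgeR adjusted p = 0.028 and 0.0399). Itpr is not confined to muscle. RyR, the ryanodine receptor that releases calcium in muscle, was at 0.606, 1.69 and 1.04 CPM in null heterozygotes, 1.07, 0.681 and 1.57 in NES heterozygotes and 2.06, 1.85 and 2.27 in mutants. Its mutant libraries were above the others (0.90, SE 0.42, edgeR adjusted p = 0.312 against the null and 0.89, SE 0.42, adjusted p = 0.48 against the NES heterozygote). SERCA, the calcium pump, was at 486 to 711 CPM in null heterozygotes, 552 to 679.7 in NES heterozygotes and 612 to 737 in mutants.

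Of 19 tested genes of muscle attachment and the dystrophin complex, 0 passed in any comparison, and the median log2 fold changes were 0.18 and 0.20 in the mutant comparisons and 0.04 between the heterozygotes. The lowest unadjusted p in this list was that of wb, a laminin alpha chain gene, at 8.11 ± 3.77, 9.92 ± 2.01 and 14.8 ± 2.56 CPM for null heterozygotes, NES heterozygotes and mutants in that order (0.87, SE 0.31, edgeR adjusted p = 0.234 against the null heterozygote). Of 10 tested muscle regulators beyond Mef2 and how, 0 passed, with medians of 0.25, 0.25 and -0.04. The FGF receptor gene htl, which guides muscle precursors in the embryo, was at 2.30 ± 0.216, 3.29 ± 0.835 and 4.74 ± 0.429 CPM (1.04, SE 0.23, adjusted p = 0.0815 against the null heterozygote), and its adaptor stumps at 2.73 ± 0.218, 2.74 ± 0.468 and 4.22 ± 0.594. The list of other contractile genes, mostly non-muscle, had medians of 0.15 and 0.00 in the mutant comparisons with 0 of 7 called. Of 12 listed receptor genes of the oviduct and of signals to muscle, 6 were tested, with medians of 0.06, 0.03 and 0.24. In the mutant comparisons 0 passed, and 1 passed between the heterozygotes (Octbeta3R, lower). The sum was 35.7, 21.7 and 42.3 CPM in null heterozygotes, 44.4, 28.1 and 58.8 in NES heterozygotes and 34.8, 39.9 and 35.1 in mutants. In both heterozygotes it was lowest in replicate 2, where members without Chd64, Argk1 and Actn summed highest (483 and 457 CPM).

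Marker lists of other cells had median log2 fold changes of various sizes, with few genes called. Of all tested genes, 1.25% passed against the null and 0.972% against the NES heterozygote, so 0 called in a short list shows little. Eggshell genes had medians of 1.0 and 0.34 against the null and the NES heterozygote with 1 of 26 called in the first comparison (Muc12Ea, higher) and 0 in the other, and follicle cell markers 0.81 and 0.56 with 0 of 12 called. Hemocyte markers had medians of 0.66 and 0.26 over 6 tested genes with 0 called, their defining gene Hml had 4 to 27 counts, and the summed share of the list was 0.0366% to 0.0372% in null heterozygotes, 0.0357% to 0.0414% in NES heterozygotes and 0.0392% to 0.0448% in mutants. Tracheal markers had medians of 0.64 and 0.02 over 7 tested genes with 0 called. Genes of the non-muscle actin cytoskeleton, 21 tested, had medians of 0.05 and -0.03 with 0 called. Of 5 tested neuron markers, with medians of 0.37 and 0.32, 1 was called (cpx, higher against the null heterozygote). Of 5 tested fat body markers, with medians of 0.01 and 0.06, 1 was called (Fbp2, higher against the NES heterozygote). These called marker genes are named after their values were seen.

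Digestive tract markers, mostly proteases and other gut enzymes, passed the filter for 2 of 10 genes, with medians of 1.76 and 4.9 and 0 called. Over all 10 the summed level was 6.2, 1.23 and 0.684 CPM in null heterozygotes, 0.899, 1.13 and 0.758 in NES heterozygotes and 7.60, 0.978 and 16.0 in mutants. The high libraries were thus mutant replicates 1 and 3 and null heterozygote replicate 1. Mutant replicates 1 and 3 also had the highest sums of muscle genes without Chd64, Argk1 and Actn (607 and 502 CPM). Null heterozygote replicate 1 was among the 3 lowest (353 CPM). Markers of the spermatheca and female accessory gland had medians of 0.21 and 0.71 over 2 tested genes with 0 called. The part of these other cells in the muscle values was not tested. The eggshell share was lowest in null heterozygote replicates 1 and 3 (0.855% and 1.02% of counts). The fit with it as a covariate therefore cannot fully separate it from genotype.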

How the data were processed

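Per the labels' protocols, TRIzol RNA of ovaries went into stranded TruSeq mRNA libraries for a HiSeq 2500. HTSeq, FastQC, HISAT2 2.0.4, Trimmomatic 0.36 and SAMtools 0.1.19 stand in the submitters' processing notes with no roles, beside the build BDGP6. The authors deposited raw read counts per gene, 1 file per library, with no normalization. The sources used here do not give the annotation release, the strand setting or the handling of multiply mapped reads. Symbols, coordinates and exon lengths came from the BDGP6.54 annotation, and 17252 of 17558 identifiers matched; those without a symbol hold 5.00% of counts.

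Genes were filtered by filterByExpr (minimum count 10, total 15), scaled by TMM and tested in R 4.3.3 with edgeR 4.0.16 (quasi-likelihood, all 9 libraries, 1 coefficient per genotype), adjusted by Benjamini-Hochberg over all 8642 genes at 0.05. Standard errors were taken as |log2 fold change| over the square root of F. The limit given for the level of fln covers counting error only. Alternatives used DESeq2 1.42.0, other scalings, filters, sample sets, a replicate block and an eggshell covariate, and the procedure was tested on simulated data. Members and lists were chosen with earlier results of these data known. Genes named are the 10 highest per length, Mef2, how, members with 1 genotype apart from both others, and up to 4 of lowest p in each list of further muscle genes, not all of which are printed. Mhc, sls, Mlc1, Prm, Tm2, Act87E, TpnC47D, TpnC73F, the untested members, SERCA and the few further genes named with a count of calls, a flight muscle list or a marker list were added after their values were seen. Replicate numbers showed no clear pairing of libraries. Replicates differed by more than sampling noise (chi-square per degree of freedom 17.7 to 310), and each was counted once. This does not show that they are separate biological samples.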

Additional observations from a re-analysis of the deposited data

How the results depend on the processing

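For mutant against null heterozygote, 0 members were called in the main fit and 0 to 13 with 1 library left out. The 13 were called without null heterozygote replicate 2, among 41.6% of all tested genes. With 1 library left out the median was 0.25 to 0.75. DESeq2 called 2 (bt and Msp300), among 6.39% of all tested genes, and the eggshell covariate 1 (Argk1, lower), among 9.34%. The median was 0.07 without null heterozygote replicates 1 and 3 and -0.01 with the covariate. Against the NES heterozygote the count was 0 to 2 with 1 library left out and the median 0.20 to 0.59. Without null heterozygote replicate 2 the count was 2, among 2.93% of all tested genes. It was 1 with library size alone (Msp300, with the share of all tested genes not given here). It was 2 with DESeq2 (3.99% of all tested genes), 2 with only the groups compared (1.71%) and 3 with the covariate (12.6%). Between heterozygotes the count was 0 to 1 and the median -0.10 to 0.23 with 1 library left out. The count was 1 without null heterozygote replicate 2, among 8.38% of all tested genes, and 8 with the covariate (7 lower), among 28.4%. The median was -0.28 with the covariate and -0.36 without null heterozygote replicates 1 and 3. The cause was not tested.

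Of 642 single-gene values under other settings, 18 turned sign and 23 came to pass. Those that came to pass include bt, Mf, Unc-89, Msp300, Zasp52, up, how, Actn and Mef2 against the null heterozygote. They did so without null heterozygote replicate 2, where 41.6% of all tested genes passed. The count of 23 is thus no added support for the members. Without null heterozygote replicates 1 and 3, against the null heterozygote, the values were -0.19 (Chd64), -0.17 (Actn), -0.06 (how), 0.11 (Mef2) and -0.11 (Mlc2). With the covariate they were -0.23 (Chd64), -0.14 (Actn), -0.30 (Act57B), -0.08 (how), -0.01 (Zasp52), 0.10 (Mef2) and -0.32 (Mlc2). Against the NES heterozygote Chd64 was -0.02 with the covariate. With 1 library left out it was -0.05 to 0.19, below 0 without NES heterozygote replicate 1 (-0.05) or mutant replicate 1 (-0.02). Mp20 was -0.07 to 0.23, below 0 without the same libraries (-0.07 and -0.01), and Strn-Mlck -0.25 to 0.03, above 0 without NES heterozygote replicate 3.

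Same-numbered libraries had correlations of -0.452 to 0.48 in their deviations from group means, and differently numbered ones -0.585 to 0.461. These values show no clear pairing by number. With the replicate block 0 members were called in each comparison, with medians of 0.60, 0.44 and 0.02. The leave-outs behind the count of members above both heterozygotes were added after seeing the data. The lowest tested member, TpnC47D, rests on as few as 19 counts in a library.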
